A study of Mus musculus with 16 samples.

Results

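Rnase4 and Ang are neighbouring genes that share their first exons on mouse chromosome 14, and Rnh1 on chromosome 7 encodes the inhibitor that binds both of their protein products. The 3 genes, of 37003 in the table of counts, were taken by symbol: Rnase4 and Ang were chosen by their lower counts in the knockout in earlier results of these data, and Rnh1 for its function. They were measured in brain endothelial cells (bECs), the cells that line the brain's vessels, sorted as DAPI-, CD45- and CD31+ and sequenced as 16 SMART-Seq libraries, 4 in each of 4 groups. YT-iKO animals had Yap fl/fl and Taz fl/fl alleles (Taz is Wwtr1) together with the Pdgfb-iCreER-eGFP transgene, whose Cre acts in endothelium once tamoxifen is given, whereas CTRL littermates had the same floxed alleles without the transgene, and both received tamoxifen before surgery. Adult mice of both sexes underwent either a sham operation or 30 min of middle cerebral artery occlusion (MCAo) with reperfusion, and cells were collected 72 hours later. Each library pooled the brain tissue of several mice, so the p-values measure the spread between pools.

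Both Ang (angiogenin) and Rnase4 belong to the RNase A family, small secreted ribonucleases. Angiogenin was first described as a protein that induces vessel growth, enters cells after binding surface receptors such as plexin B2, promotes transcription of ribosomal RNA in the nucleolus and, in stressed cells, cuts transfer RNAs in the cytoplasm. RNase 4 cuts RNA preferentially after uridine and has been described as angiogenic as well. Rnh1 encodes the cytosolic ribonuclease inhibitor, a leucine-rich repeat protein that binds enzymes of this family tightly and keeps them from cutting cellular RNA.

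On GRCm38 the locus lay on the plus strand, with Rnase4 (ENSMUSG00000021876) at chr14:51091077-51106151 and Ang (ENSMUSG00000072115) at chr14:51091150-51102009. Each gene had 2 annotated transcripts, made of a noncoding first exon and an own exon with the whole coding sequence. The genes shared 219 exon bases, which were 13.4% of the 1637 exon bases of Rnase4 and 18.2% of the 1202 of Ang. Of these, 104 lay at chr14:51091150-51091253 and 115 at chr14:51096359-51096473, both in noncoding first exons. The other 1418 exon bases of Rnase4 and 983 of Ang belonged to 1 of the genes alone. How a read in the shared bases was assigned is not given in the sources used here, so a part of either count could come from the other gene. Rnh1 (ENSMUSG00000038650) lay on the minus strand at chr7:141160326-141172857, had 5 transcripts and 2594 exon bases, and overlapped no exon of another gene.

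**Figure D1:**
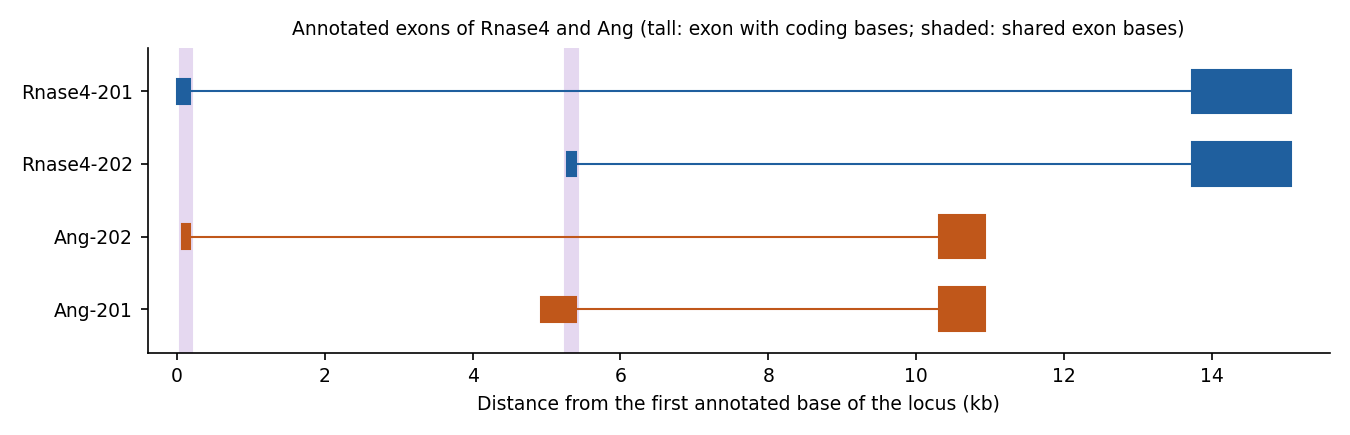
Annotated exons of the Rnase4 and Ang transcripts, by distance in kb from the first base of the locus. Taller blocks are exons that hold coding bases, drawn whole, and shorter blocks are noncoding exons. The first exons of the genes overlap at both start sites whereas the exons with coding bases lie apart.

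The promoter upstream of the first start site is shown because RefSeq (GRCm38.p6) lists the same window for both genes, chr14:51090827-51091126, with the start site at 51091077. It is given below from chr14:51090827-51091086 on the plus strand, with the first 10 transcribed bases in capitals.

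Rnase4 and Ang promoter: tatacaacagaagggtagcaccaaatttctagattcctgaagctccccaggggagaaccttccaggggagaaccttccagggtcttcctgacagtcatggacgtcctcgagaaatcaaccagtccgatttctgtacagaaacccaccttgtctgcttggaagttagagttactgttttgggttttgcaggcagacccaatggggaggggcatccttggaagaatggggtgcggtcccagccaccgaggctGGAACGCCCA

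Because TEAD proteins are the DNA-binding partners through which YAP and TAZ act, the 300 bases of each promoter window were searched on both strands for GGAATG, the core of the TEAD motif, and for the TATA box letters TATAAA. Neither was found in the shared window or in the window at the second start site that RefSeq lists under Rnase4, chr14:51095750-51096049. Of 32817 mouse promoter windows of the same length, 14.7% held GGAATG and 13.6% held TATAAA, so most windows lack these letters. The first coding bases of each gene lie past the shared first exons, in an exon of its own. They are printed with the start codon in capitals, at chr14:51104821-51104880 for Rnase4 and chr14:51101404-51101463 for Ang.

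Rnase4 coding start: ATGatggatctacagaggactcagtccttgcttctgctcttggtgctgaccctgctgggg

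Ang coding start: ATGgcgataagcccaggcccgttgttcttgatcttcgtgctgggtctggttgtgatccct

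The libraries held 11418262 to 23074547 counts, with a median of 16441012. All 13 endothelial markers were detected, with a summed level of 11688 to 26557 CPM (the count of a gene relative to the TMM-scaled total of its library), against 541 to 1614 CPM for 10 pericyte and smooth muscle markers and 20.2 to 43.7 CPM for 11 microglia and macrophage markers. Yap1 was at 80.5 to 132.6 CPM in CTRL and 37.1 to 63.0 CPM in YT-iKO libraries, and Wwtr1 at 234.5 to 437.6 and 45.0 to 136.4 CPM. These levels cover whole genes, including exons outside the floxed parts. Genes of olfactory, vomeronasal and taste receptors, which bECs are not known to use, gave an even low signal of 0.0292 to 0.401 CPM per kb. Spread over the exon bases of each member, that signal came to at most 6.15% of the Rnase4 level, 26.6% of the Ang level and 4.54% of the Rnh1 level in a library. It is 1 value per library over 1300 genes, and single genes can lie above it. Or6s1, an olfactory receptor gene beside the locus, did so, with a CTRL sham mean of 2.96 CPM over 5789 exon bases. The shares are therefore no upper bound.

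YT-iKO bECs held less Rnase4 mRNA than CTRL bECs in both surgeries. In CTRL sham libraries it stood at 34.9, 29.9, 33.6 and 32.5 CPM, and in YT-iKO sham libraries at 13.6, 10.2, 10.7 and 10.4 CPM. After MCAo it stood at 53.4, 29.6, 36.3 and 54.0 CPM in CTRL and at 18.8, 11.3, 15.99 and 23.6 CPM in YT-iKO. All YT-iKO libraries lay below all CTRL libraries in both surgeries, and the widest spread was within the MCAo groups. The group means were 32.7 ± 2.13 and 11.2 ± 1.61 CPM after sham and 43.3 ± 12.3 and 17.4 ± 5.14 CPM after MCAo (SD, n = 4 each). On the edgeR scale the log2 fold change of YT-iKO against CTRL was -1.54 (SE 0.23), 65.6% lower, after sham and -1.31 (SE 0.23), 59.8% lower, after MCAo. Rnase4 was picked for this contrast, so these values are a description with no test.

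Ang showed the same order of groups at a lower level. Its CTRL sham libraries held 6.83, 6.72, 7.62 and 7.21 CPM and its YT-iKO sham libraries 2.31, 3.71, 1.81 and 1.71 CPM. After MCAo the values were 10.1, 4.48, 5.70 and 8.94 CPM in CTRL and 2.91, 2.19, 2.40 and 3.24 CPM in YT-iKO. The genotypes did not overlap in either surgery, and CTRL MCAo replicate 2 was the CTRL library nearest to the YT-iKO range. Group means were 7.10 ± 0.406 and 2.39 ± 0.919 CPM after sham, and 7.30 ± 2.64 and 2.68 ± 0.478 CPM after MCAo (SD, n = 4 each). The log2 fold change was -1.56 (SE 0.31), 66.2% lower, after sham and -1.44 (SE 0.30), 63.1% lower, after MCAo, given as a description for the same reason. The counts behind these values were 26 to 146 reads per library for Ang and 158 to 858 for Rnase4, so Ang carries the larger counting error.

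Among all 31085 genes tested, YT-iKO libraries lay wholly below CTRL libraries for 2.22% after sham and 0.415% after MCAo, and edgeR's quasi-likelihood test called 0.0965% and 0.0708% of genes in either direction at an adjusted p under 0.1. With the even signal subtracted, the log2 differences were -1.59 and -1.35 for Rnase4 and -1.82 and -1.50 for Ang. In these sorted bulk samples, fewer cells that express a gene and less RNA per cell cannot be told apart. The summed astrocyte markers (7 genes, none at 0 in all libraries of a group) also differed by genotype after sham, at 100.6 to 114.8 CPM in CTRL and 64.0 to 87.7 CPM in YT-iKO, and overlapped after MCAo at 95.5 to 116.4 and 76.0 to 116.3 CPM. Other lists were lower as well, with overlapping libraries. Sham medians in CTRL and YT-iKO were 22872 and 17931 CPM for endothelial and 971 and 704 CPM for pericyte and smooth muscle markers. Microglia and macrophage markers were at 26.0 and 25.6 CPM, fibroblast markers at 18.1 and 18.4, and neutrophil and monocyte markers at 5.10 and 5.79. The part of any of these in the lower Rnase4 and Ang levels was not tested.

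Rnh1, the inhibitor, was not called between genotypes. It stood at 30.0, 33.6, 33.2 and 37.0 CPM in CTRL sham and at 34.5, 30.6, 26.4 and 34.7 CPM in YT-iKO sham libraries. After MCAo it stood at 45.2, 29.0, 26.2 and 36.3 CPM in CTRL and at 43.4, 22.4, 28.0 and 49.2 CPM in YT-iKO. The genotypes overlapped in both surgeries. The log2 fold change after sham was -0.086 (SE 0.23, 95% interval -0.54 to 0.37, adjusted p = 0.990 by edgeR's quasi-likelihood test), and an exact permutation test (two-sided, on log2(CPM + 1)) gave p = 0.486. After MCAo the change was 0.066 (SE 0.23, interval -0.39 to 0.52), with an exact permutation p of 0.914. The sign of both small differences depended on the scaling and filter, whereas the intervals leave out changes as large as those of Rnase4 and Ang.

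**Figure D2:**
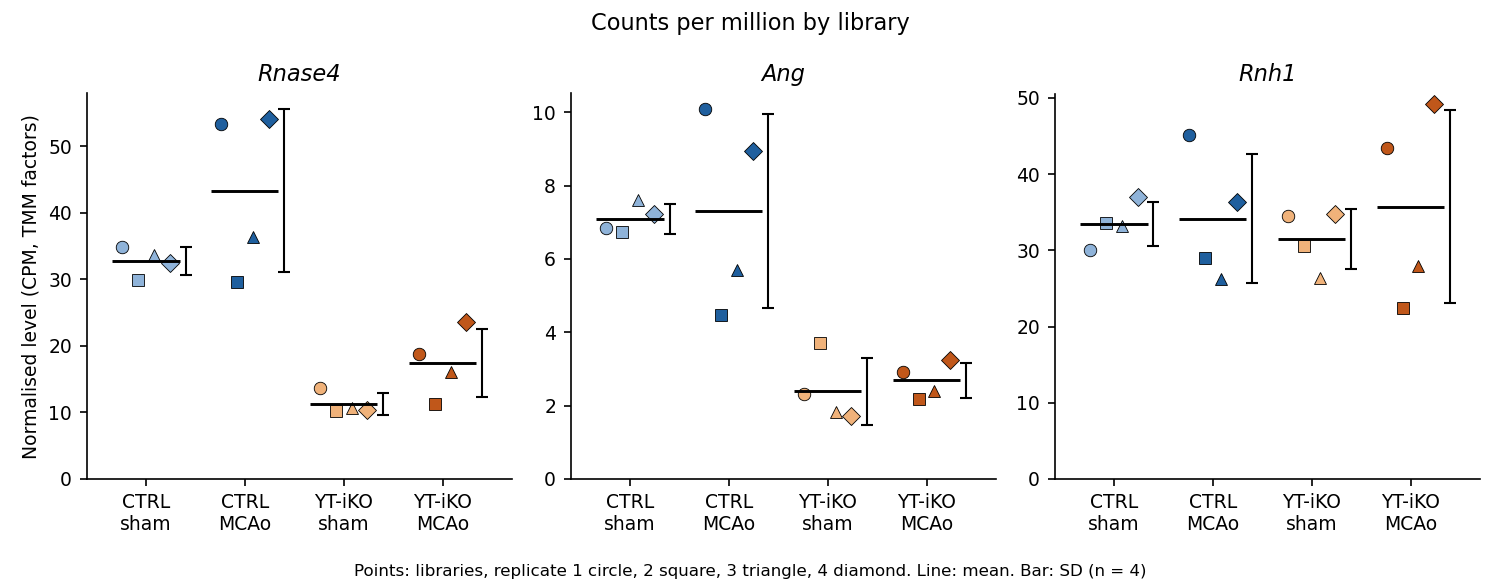
CPM of Rnase4, Ang and Rnh1 in each of the 16 libraries, by group, with bars for the mean and SD (n = 4). YT-iKO libraries lie below CTRL libraries for Rnase4 and Ang in both surgeries, and overlap them for Rnh1.

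Divided by the exon length of each gene, the order of the 3 levels differed between genotypes. In CTRL sham libraries the mean level per length was 19.97 CPM per kb for Rnase4, 12.9 for Rnh1 and 5.90 for Ang, and in YT-iKO sham libraries it was 6.87, 12.2 and 1.99 CPM per kb. After MCAo it was 26.5, 13.2 and 6.07 CPM per kb in CTRL and 10.6, 13.8 and 2.23 CPM per kb in YT-iKO, in the same gene order. Within single libraries, Rnase4 stood above Rnh1 per base in 8 of 8 CTRL libraries, by 1.39 to 2.36 times, and in 0 of 8 YT-iKO libraries, where it was 0.475 to 0.906 times Rnh1. Rnase4 stood above Ang per base in all 16 libraries. A length over all exons of a gene is an approximation, since the shared first exons count towards both genes. The 2594 exon bases of Rnh1 add up the alternative first exons of its 5 transcripts, which lowers its level per base. Undivided, Rnase4 counts were 0.888 and 0.877 times those of Rnh1 in CTRL sham replicates 2 and 4, so the order there rests on the lengths. Rnase4 was chosen by its lower YT-iKO level, so the change of order with genotype is a description with no test.

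The next comparison asked whether ischemia changed the 3 genes. Rnase4 was higher on average after MCAo in both genotypes, while Ang and Rnh1 were close to their sham levels. The edgeR log2 fold change of Rnase4 was 0.41 (SE 0.22, adjusted p = 1.00) in CTRL and 0.63 (SE 0.23, adjusted p = 0.875) in YT-iKO, against 0.216% and 0.318% of all genes called, 0.183% and 0.277% of them called higher. Averaged over genotypes it was 0.52 (SE 0.16), a 1.43-fold higher level with an unadjusted p of 0.00381 and an adjusted p of 0.209 by edgeR, so Rnase4 was not among the 1.23% of genes called or the 0.933% called higher. The exact permutation test on log2(CPM + 1) gave p = 0.229 in CTRL, 0.0571 in YT-iKO and 0.0139 averaged (adjusted p = 0.153 over 11 tests). In CPM the sham and MCAo groups of both genotypes overlapped, with replicate 2 the lowest library of each MCAo group.

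MCAo libraries of a group shifted up and down together for the 3 genes: replicate 2 was low and replicate 4 high for Rnase4 in both genotypes, and YT-iKO MCAo replicate 2 was also the lowest for Ang and Rnh1. Scaling factors taken from abundant genes alone (mean level 10 CPM or more) lowered this shared spread. The coefficient of variation of Rnh1 fell from 24.8% to 2.75% in CTRL MCAo and from 35.4% to 9.51% in YT-iKO MCAo. On this scale Rnase4 was at 30.5 ± 1.96 CPM after sham and 42.7 ± 6.29 CPM after MCAo in CTRL, and at 11.8 ± 2.00 and 17.2 ± 1.90 CPM in YT-iKO (SD, n = 4 each). MCAo libraries then lay above sham libraries in both genotypes, as they did for 4.71% of all genes in CTRL and 1.89% in YT-iKO.

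With these factors edgeR called Rnase4 higher after MCAo in CTRL (log2 fold change 0.48, SE 0.12, adjusted p = 0.0718) and in YT-iKO (0.55, SE 0.13, adjusted p = 0.0482), where it called 1.41% and 1.26% of genes higher. Averaged over genotypes the change was 0.52 (adjusted p = 0.00193), with 3.35% of genes called higher. The exact permutation test, added on this scale after seeing the data, gave p = 0.0286 in each genotype, the smallest that 4 against 4 libraries allow, and p = 0.000408 averaged, the smallest possible for that test (adjusted p = 0.105, 0.105 and 0.00449 over 11 tests). DESeq2 called the averaged change as well (0.51, adjusted p = 0.0352, 1.72% of genes called higher), and so did edgeR with a filter on CPM above 1 (0.51, adjusted p = 0.0515, 1.7% called higher). The factors moved the median log2 fold change of all genes from 0.0325 to 0.106 in the averaged comparison from 0.0685 to 0.212 in CTRL, and from 0.110 to 0.303 by genotype after sham. RLE factors in edgeR gave no call (averaged 0.51, adjusted p = 0.129), so the call turned on the scaling, the filter and the program. With limma-voom and sample quality weights the Rnase4 change was smaller and not called, at 0.063 (adjusted p = 0.771) in CTRL, 0.41 (0.147) in YT-iKO and 0.23 (0.116) averaged.

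Ang was not called after MCAo, with a log2 fold change of 0.041 (SE 0.29) in CTRL, 0.17 (SE 0.31) in YT-iKO and 0.10 (SE 0.21, 95% interval -0.31 to 0.52) averaged. Its exact permutation p was 0.971, 0.457 and 0.681. Rnh1 differed by 0.030 (SE 0.23), 0.18 (SE 0.23) and 0.11 (SE 0.16), with exact permutation p of 1, 0.686 and 0.714. On the scale of abundant genes the group means of Rnh1 lay between 31.3 ± 3.01 and 34.7 ± 3.30 CPM (SD, n = 4) across all 4 groups.

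The response to MCAo was not found to differ between genotypes. The difference in log2 fold change, YT-iKO minus CTRL, was 0.22 (SE 0.32, 95% interval -0.40 to 0.85) for Rnase4, 0.12 (SE 0.43) for Ang and 0.15 (SE 0.33) for Rnh1. Neither edgeR nor DESeq2 called any gene in this comparison (0% of 31085 by edgeR, with 116 at an unadjusted p under 0.05).

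**Figure D3:**
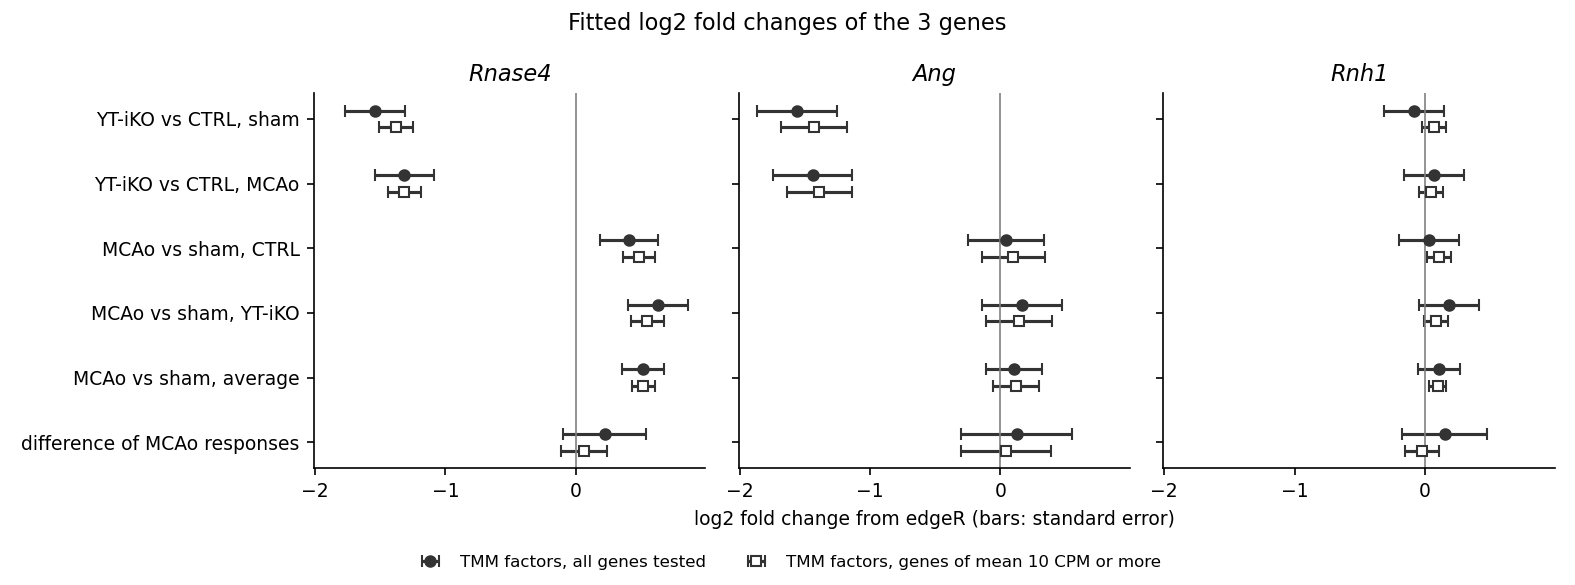
Log2 fold changes of Rnase4, Ang and Rnh1 from edgeR with their standard errors, for each comparison. The genotype changes of Rnase4 and Ang sit far below 0, those of Rnh1 near 0, and the MCAo changes are largest for Rnase4.

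Ratios of 2 members within a library do not depend on library scaling and were therefore compared as well, as 9 tests of which those with Rnh1 and the averaged ones were added after seeing the data. The ratio of Rnase4 to Rnh1 counts was 1.16, 0.888, 1.01 and 0.877 in CTRL sham and 1.18, 1.02, 1.39 and 1.49 in CTRL MCAo. In YT-iKO it was 0.396, 0.335, 0.405 and 0.300 after sham and 0.434, 0.504, 0.572 and 0.478 after MCAo. The surgeries did not overlap in YT-iKO and overlapped in CTRL. Averaged over genotypes the ratio was 1.34-fold higher after MCAo (log2 difference 0.42, exact two-sided permutation p = 0.00163, adjusted p = 0.0147 over 9 tests), and p stayed between 0.000816 and 0.00408 with any 1 library left out. Within genotypes the exact permutation p was 0.0571 in CTRL and 0.0286 in YT-iKO (adjusted p = 0.103 and 0.0643).

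The ratio of Ang to Rnase4, the genes with the same promoter window, was lower after MCAo. It was 0.196, 0.225, 0.227 and 0.222 in CTRL sham and 0.189, 0.151, 0.157 and 0.165 in CTRL MCAo, so every MCAo library lay below every sham library. In YT-iKO it was 0.170, 0.363, 0.170 and 0.165 after sham and 0.155, 0.194, 0.150 and 0.138 after MCAo, which overlapped. The fold of MCAo over sham was 0.760 in CTRL (exact permutation p = 0.0286, adjusted p = 0.0643), 0.775 in YT-iKO (p = 0.286, exact) and 0.768 averaged (exact permutation p = 0.00776, adjusted p = 0.0349 over 9 tests). YT-iKO sham replicate 2 set much of the YT-iKO value: without it the log2 difference went from -0.37 to -0.090 in YT-iKO and from -0.38 to -0.24 averaged (exact permutation p = 0.0167). Ang took 16.4% to 18.5% of the joint Ang and Rnase4 counts in CTRL sham and 13.1% to 15.9% in CTRL MCAo libraries. In YT-iKO sham replicate 2 the share was 26.6% (Wilson 95% interval 21.5% to 32.4%), against 14.1% to 14.5% in the other 3 libraries of its group.

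No test of the ratios was made between genotypes. The ratio of Ang to Rnase4 in YT-iKO was 0.938 times the CTRL value after sham and 0.956 times after MCAo, with overlapping libraries. After sham the overlap and that value rested on YT-iKO sham replicate 2, at 0.363. The other YT-iKO sham libraries, at 0.165 to 0.170, all lay below the CTRL sham libraries, at 0.196 to 0.227. The ratio of Rnase4 to Rnh1 in YT-iKO was 0.364 times the CTRL value after sham and 0.394 times after MCAo, and that of Ang to Rnh1 0.341 and 0.376 times. Ang to Rnh1 was not found to differ by surgery (averaged log2 difference 0.035, exact permutation p = 0.830). Summed fibroblast markers (5 genes) also separated the surgeries in CTRL, at 16.9 to 19.1 CPM after sham and 26.1 to 31.5 CPM after MCAo. In YT-iKO they overlapped at 16.97 to 34.8 and 26.0 to 34.02 CPM, with Lum at 0 in some library, and their part in the MCAo differences of Rnase4 was not tested.

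**Figure D4:**
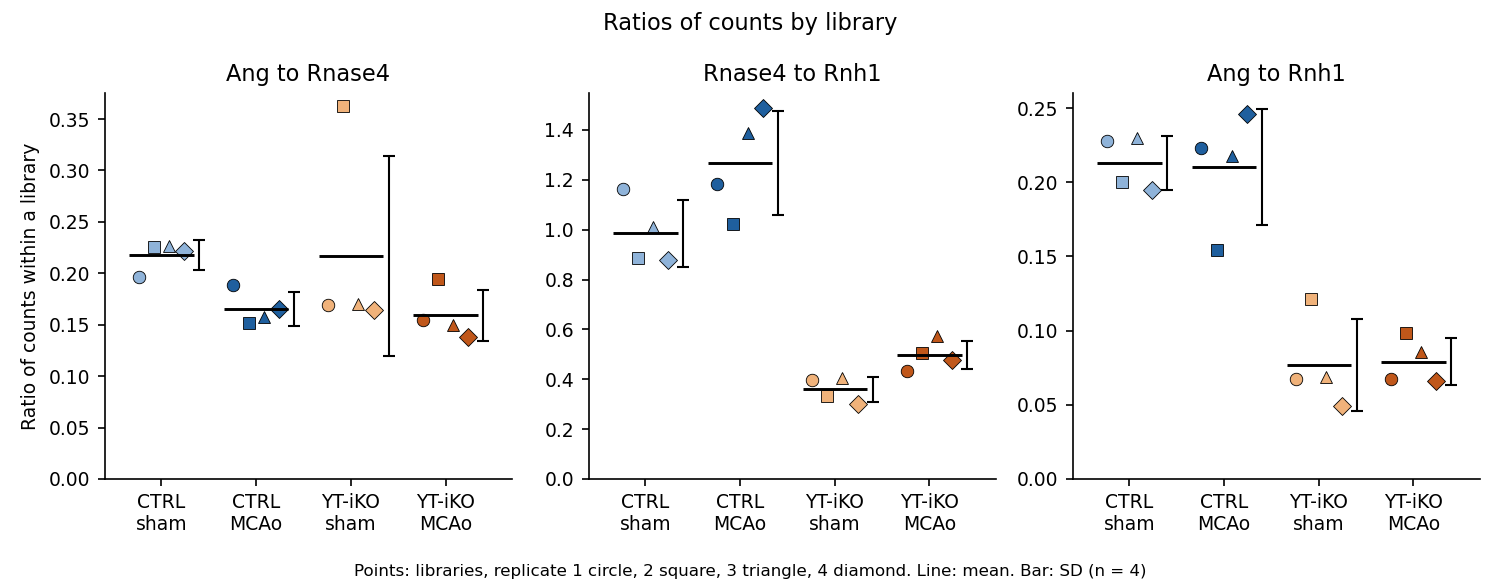
Within-library ratios of counts for each pair of members, by group, on a linear axis, with the mean and SD of each group. Rnase4 to Rnh1 does not overlap between surgeries in YT-iKO, Ang to Rnase4 does not in CTRL, and YT-iKO sham replicate 2 stands apart at 0.363 for Ang to Rnase4.

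The partners of angiogenin were taken from a list of 37 symbols, which matched 34 genes in the table, 26 of them with enough counts to test. Plxnb2, the plexin B2 receptor through which angiogenin enters cells, was the only gene on the list that edgeR called with TMM factors over all tested genes, and it rose after MCAo in both genotypes, where 0.183% of all genes in CTRL, 0.277% in YT-iKO and 0.933% averaged were called higher. Its CTRL sham libraries held 21.8, 29.4, 26.3 and 45.7 CPM and its CTRL MCAo libraries 141.1, 81.3, 60.4 and 107.5 CPM. YT-iKO libraries held 33.3, 24.3, 20.02 and 25.1 CPM after sham and 121.1, 64.3, 40.3 and 135.6 CPM after MCAo. Sham and MCAo did not overlap in either genotype, as for 2.24% of all genes in CTRL and 0.785% in YT-iKO in that direction.

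The log2 fold change of Plxnb2 was 1.66 (SE 0.34, adjusted p = 0.0431 by edgeR) in CTRL and 1.81 (SE 0.34, adjusted p = 0.0191) in YT-iKO. Averaged it was 1.74 (SE 0.24, adjusted p = 2.89e-04 by edgeR), and the exact permutation p was 0.0286 in each genotype and 0.000408 averaged, both the smallest possible (adjusted p = 0.178 and 0.00816 over 20 tests). Between genotypes Plxnb2 was not called, with means of 30.8 ± 10.4 and 25.7 ± 5.55 CPM after sham and 97.6 ± 34.8 and 90.3 ± 45.4 CPM after MCAo (SD, n = 4). The call within CTRL was lost without CTRL sham replicate 1, 2 or 3 or CTRL MCAo replicate 1 or 4. By edgeR the adjusted p was then 0.107 to 0.261, with a log2 fold change of 1.48 to 1.64. The call within YT-iKO was lost without YT-iKO sham replicate 2 or 4 and with only the YT-iKO groups in the fit. There the adjusted p by edgeR was 0.101, 0.120 and 0.126, with log2 fold changes of 1.72, 1.81 and 1.70. With limma-voom and sample quality weights the YT-iKO change of Plxnb2 was 0.85 (adjusted p = 0.0563).

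The other surface partners on the list were not called by edgeR. Egfr, described as a receptor for RNase family ligands, had means of 5.02, 6.97, 5.35 and 6.33 CPM in the order sham and MCAo of CTRL, then sham and MCAo of YT-iKO. Its averaged log2 fold change after MCAo was 0.36 by edgeR (adjusted p = 1.00) and 0.80 by limma-voom with sample quality weights (adjusted p = 0.00112), which also called it in CTRL (0.69, adjusted p = 0.0354) and YT-iKO (0.92, adjusted p = 0.0479). That fit called 24.2% of all genes in CTRL, 18.1% in YT-iKO and 54.7% averaged. Sdc4, the proteoglycan syndecan 4, had means of 5.02, 7.79, 4.67 and 6.24 CPM in that order. Ncl, the nucleolar protein nucleolin, was far more abundant at 271.3, 259.8, 253.3 and 294.5 CPM. None of the 5 genes of ribosomal DNA transcription, Ncl among them, and none of the 7 genes of tRNA modification and tRNA fragments was called by edgeR with TMM factors over all tested genes, where at most 1.23% of all genes were called in any comparison. With abundant-gene factors edgeR called Ybx1, an RNA-binding protein that binds tRNA fragments, higher after MCAo averaged over genotypes (0.45, adjusted p = 0.0201, 3.35% of all genes called higher). Ybx1 was not called by edgeR with TMM factors over all tested genes (0.49, adjusted p = 0.735) or by DESeq2 (adjusted p = 0.208), and its sign turned with limma-voom (-0.098).

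**Figure D5:**
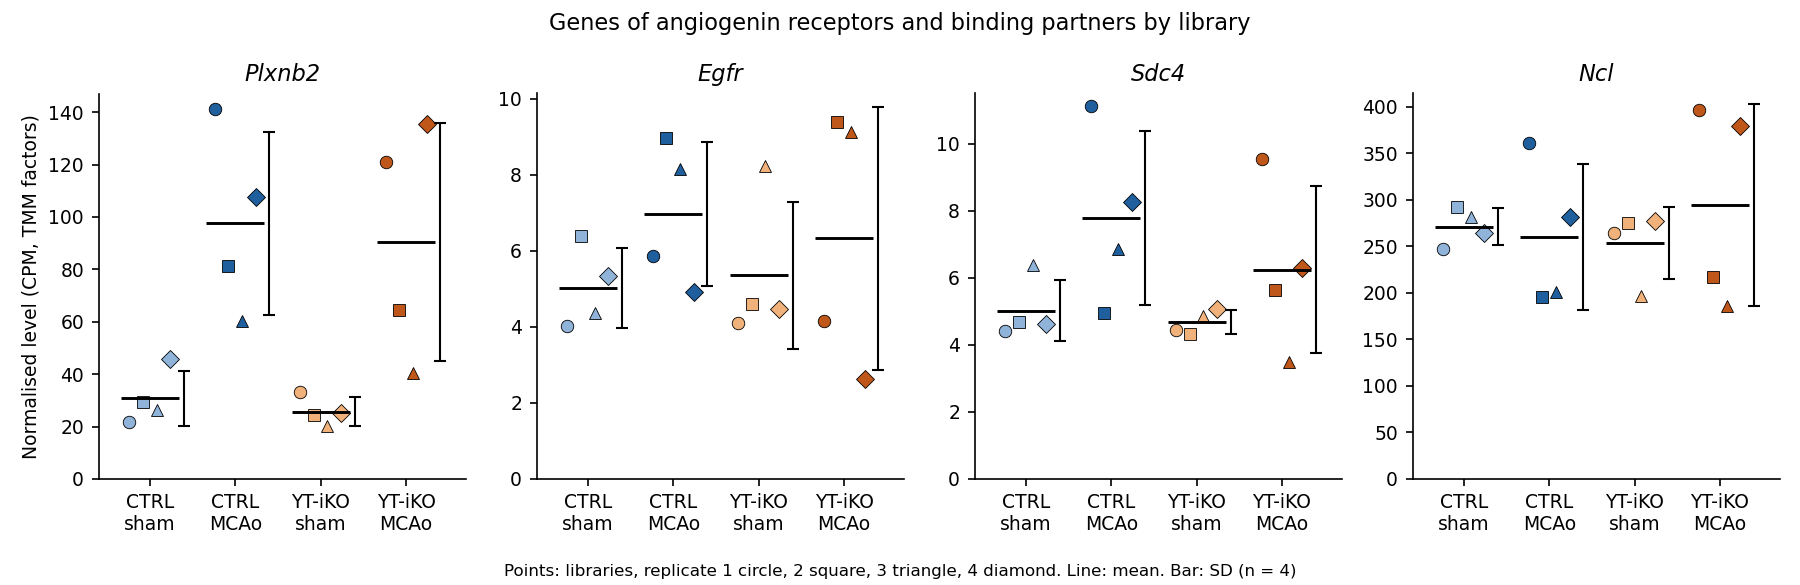
CPM of Plxnb2, Egfr, Sdc4 and Ncl in each library, by group, with the mean and SD (n = 4). Plxnb2 lies higher in all MCAo than in all sham libraries of a genotype, whereas the groups overlap for Egfr, Sdc4 and Ncl.

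The other genes of the RNase A family were low. Of the 16 matched in the table, 8 were tested (Ang4, Rnase1, Rnase2a, Rnase6, Rnase10, Rnase12, Rnase13 and Ear2), none was called by edgeR with TMM factors over all tested genes, and none exceeded 2.53 CPM in any library. Copies of angiogenin (Ang3, Ang4 and Ang6) stayed at or below 1.02 CPM, and reads of such near-identical copies may be split or dropped in counting. Rnaset2a, a lysosomal ribonuclease of another family, had an averaged log2 fold change after MCAo of -0.56 that edgeR did not call with TMM factors over all tested genes (adjusted p = 0.175). It was called lower by edgeR with abundant-gene factors (adjusted p = 0.0136, 1.77% of genes called lower) or the filter on CPM above 1 (adjusted p = 0.0454, 0.807% called lower), and by DESeq2 (adjusted p = 0.0319, 0.901% called lower). Its near-identical copy Rnaset2b makes its counts uncertain. Over the 26 tested genes of the list the median averaged log2 fold change was 0.022, against 0.033 over all genes.

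The genes next to the locus were compared in the same way. Within 200 kb of it 26 other genes were annotated, 16 matched the table, 13 were tested and 0 were called in all 6 comparisons by edgeR with TMM factors over all tested genes, which called between 0% and 1.23% of all genes, so that few or none would be called among any 13 genes. The nearest tested gene on the left, Or6s1, an olfactory receptor gene, lay 16.6 kb away with group means of 2.96, 4.20, 3.50 and 3.37 CPM, and the nearest on the right, Eddm3b, lay 8.28 kb away with 0.623, 0.771, 0.763 and 0.473 CPM. With windows of 100 and 400 kb, 6 and 26 genes were tested and none was called in that fit. With abundant-gene factors edgeR called 1 of the 13, ENSMUSG00000021871, higher after MCAo averaged over genotypes (0.41, adjusted p = 0.0156). That fit called 3.35% of all genes higher.

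Across the 16 libraries, the profiles most like each member were found by Pearson's r of log2(CPM + 1) over 21112 genes whose mean reached 1 CPM. For Rnase4 these were Cp (ceruloplasmin, r = 0.962), Vash1 (vasohibin 1, 0.958), Slc38a5 (an amino acid transporter, 0.957), Serpinb6b (0.953) and Wwtr1 (0.939). For Ang they were Yap1 (0.969), Wwtr1 (0.959), Tm6sf1 (0.947), Chrnb1 (0.940) and Slc16a4 (0.925). Rnase4 ranked 6 for Ang and Ang ranked 10 for Rnase4 (r = 0.921). With each group centred on its mean, r between Rnase4 and Ang was 0.679. By that measure Serpinb6b, at 0.730, ranked only 5053 for Rnase4, so 0.679 does not set the pair apart from other genes. Their likeness thus did not stand out once the group means, and with them the genotype difference that chose the genes, were removed. The profiles nearest to Rnh1 were Psmd3 (a proteasome subunit, 0.978), Atp5a1 (an ATP synthase subunit, 0.969), Ube2e3 (0.968), Mcfd2 (0.966) and Erh (0.965). Rnase4 and Rnh1 had r = 0.366, or -0.023 on the scale of abundant genes, and within groups 0.812. Each value rests on 1 set of libraries and their scaling, and is a description with no test.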

How the data were processed

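The authors sorted bECs, prepared SMART-Seq libraries without molecular identifiers, and mapped reads to GRCm38 with STAR 2.7.8a and GENCODE M12. The deposited table holds raw counts per gene, and the counting program and its handling of strand and shared exons are not given in the sources used here. Groups came from the sample labels. Counts were tested with edgeR 4.0.16 (R 4.3.3): TMM factors, filterByExpr (minimum count 10, minimum total 15), all 4 groups in 1 quasi-likelihood model, Benjamini-Hochberg adjustment over 31085 genes, and a threshold of 0.1 as in the study's methods. Standard errors were the log2 fold change over the square root of F, and 95% intervals used the normal approximation. Single values were tested by exact two-sided permutation with scipy 1.17.1. Alternatives were DESeq2 1.42.0, limma 3.58.1 (voom with sample weights), other factors, filters and pseudocounts (1 or 0.1 CPM), a replicate block, and each library left out. Gene models for lengths and neighbours came from the GENCODE annotation given for this build (M21) and promoters from RefSeq. On simulated counts of 28742 genes for MCAo in CTRL, edgeR recovered 20% of genes changed by 1 log2 unit and 51% of those changed by 2, and in YT-iKO (28800 genes) 14% and 49%. Intervals of shares cover counting error only. Named genes were the 3 members, the receptors and nucleolin, list genes that were called or moved with a setting, the nearest tested neighbours, and the 5 profiles most like each member. The members and lists were chosen with earlier results of these data known.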

Additional observations from a re-analysis of the deposited data

Results flagged for a closer look

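In 48 sets of 4 libraries (a gene or ratio in a group), 6 had a library that stood apart by Dixon's test at the 95% level, which chance gives in about 1 in 20. Among the members these were Rnase4 in YT-iKO sham replicate 1, at 13.6 CPM above the other 3 libraries, the ratio of Ang to Rnase4 in CTRL sham replicate 1, at 0.196 below the others, and that ratio in YT-iKO sham replicate 2, at 0.363 above the others. Egfr stood apart in YT-iKO sham replicate 3 at 8.23 CPM, Sdc4 in CTRL sham replicate 3 at 6.37 CPM, and Ncl in YT-iKO sham replicate 3 at 196.1 CPM, the lowest of its group. The Ang level of YT-iKO sham replicate 2, 3.71 CPM, was the highest of its group. YT-iKO sham replicate 3 also had the largest even signal over olfactory, vomeronasal and taste receptor genes. The cause was not tested for any of them.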

How the results depend on the processing

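The lower Rnase4 and Ang levels in YT-iKO kept their direction under every alternative run. Rnase4 after MCAo was called in CTRL (0.48) and YT-iKO (0.55) with abundant-gene factors, and averaged with those factors (0.52), DESeq2 (0.51) and a filter on CPM above 1 (0.51). With 1 library left out the averaged value was 0.43 to 0.59, called without YT-iKO MCAo replicate 2 (0.58, adjusted p = 0.0267 by edgeR). With a replicate block it was 0.48 (adjusted p = 0.101), and with voom 0.23 (0.063 in CTRL and 0.41 in YT-iKO, none called). The small values of Rnh1 and Ang changed sign. For Rnh1 these were, by genotype, 0.069 after sham with abundant-gene factors (0.068 in the permutation test) and, after MCAo, -0.000923 with no filter, -0.12 with voom and -0.13 to 0.20 with 1 library left out. After MCAo in CTRL they were -0.00791 with the block, -0.16 with voom and -0.080 to 0.11 left out, in YT-iKO -0.26 and -0.021 to 0.32, and averaged -0.21 with voom. The genotype difference in the response was -0.025 with abundant-gene factors, -0.096 with voom and -0.058 to 0.29 left out. For Ang they were -0.41 with voom and -0.10 to 0.22 left out in CTRL, -0.20 with voom averaged, -0.053 to 0.37 left out for the difference in response, and 0.071 in the permutation test in CTRL with abundant-gene factors. Ang to Rnh1, averaged, was -0.057 to 0.16 left out.

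Genes called by genotype after sham numbered 30, against 81 by DESeq2, 122 with abundant-gene factors, 143 by voom, 126 with only the groups compared and 12 to 43 left out. By genotype after MCAo they numbered 22, against 92, 181, 257 by voom, 34 with the replicate block and 11 to 47 left out. After MCAo in CTRL they numbered 67, against 222, 569, 7538 by voom, 121 with the CPM filter, 119 with the block, 623 with only the groups compared and 26 to 162 left out. In YT-iKO they numbered 99, against 267, 542, 5626, 17 with only the groups compared and 37 to 203 left out, and averaged 383, against 814, 1591, 17018, 641 with the CPM filter and 246 to 578 left out. On the list of 26 tested partners, 1 gene was called in each MCAo comparison, against 12 (voom), 2 (only the groups compared) and 0 to 1 (left out) in CTRL, 9, 0 and 0 to 1 in YT-iKO, and 2 (DESeq2), 3 (abundant-gene factors: Plxnb2, Ybx1 and Rnaset2a), 2 (CPM filter), 18 (voom) and 1 to 2 (left out) averaged. Of the neighbours 0 were called, against 3, 3 and 8 by voom in CTRL, YT-iKO and averaged, and 1 averaged with abundant-gene factors. Why voom called so many genes was not tested. Of 24 same-numbered pairs, 17 had a correlation of deviations over 0.1 (median 0.259), against 27 of 72 pairs with different numbers (median -0.128). Same-numbered libraries were thus more alike, but since not every pair passed, the numbers were not used as pairs. The counts of Ang, 26 to 146 reads a library, limit what can be seen of its response.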

Other observations

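By rank (Spearman) rather than linear correlation, the profiles nearest to Ang still included Wwtr1 (rho 0.947, rank 1) and Yap1 (rho 0.932, rank 4), and Cp was at rank 2 for Rnase4 (rho 0.915). With each group centred on its mean, Yap1 was at rank 36 for Ang (r = 0.859) and Wwtr1 at rank 1197 for Ang (r = 0.769) and 7737 for Rnase4 (r = 0.617), while Cp was at rank 2594 for Rnase4 (r = 0.799). On the scale of abundant genes Cp was nearest to Rnase4 (r = 0.947) and Yap1 nearest to Ang (r = 0.965), over the same 16 libraries, whereas the 5 profiles nearest to Rnh1 moved to ranks 8 to 160, with r = 0.713 for Erh to 0.838 for Mcfd2. These values are a description of shared profiles with no test. Rnaset2a stood at 8.58 to 10.8 CPM in CTRL sham and 5.15 to 7.94 CPM in CTRL MCAo libraries, and its copy Rnaset2b at 10.1 to 12.3 and 7.66 to 8.98 CPM. In YT-iKO Rnaset2a stood at 8.49 to 12.4 and 4.57 to 9.60 CPM, and Rnaset2b at 8.97 to 11.9 and 6.64 to 9.47 CPM.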
